A study of Mus musculus and unidentified plasmid with 60 samples.

Results

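The 6 gene loci described here are those of Fos, Fosb and Fosl2 and of Jun, Junb and Jund, the genes for most Fos and Jun subunits of the transcription factor AP-1. Each was taken as a window of 45 to 60 kb in the mouse build mm9, and the members are all listed regions that overlap a window by at least 1 base. At 0 h of KCl these were 39 of 173231 regions, at 1 h of KCl 47 of 122135, and in the group titled WT 0 of 43. The loci were chosen on earlier results of the same lists, in which the Fos and Jund loci already stood out between 0 and 1 h, so the comparison of times is given as a description and no test was made of it.

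The lists come from ChIP-seq of neurons cultured from the cortex of CD-1 mouse embryos at E16. Neurons of both times carried a dominant-negative RFX (RFX-DN) from a lentivirus given on day in vitro (DIV) 2, and its MYC tag was precipitated, so the regions are those of an introduced protein and not of native RFX. On DIV 6 they were quieted overnight with tetrodotoxin and the NMDA receptor blocker DL-2-amino-5-phosphonopentanoic acid. On DIV 7 these drugs were removed and 55 mM KCl was added for 0 or 1 h, with 2 libraries per time. The 2 WT libraries, also from DIV 7, have no treatment in their labels, and whether they carried RFX-DN is unclear. Each list combines 2 libraries, and 2 columns give the position of the centre of a region in each replicate, or a mark where there is none. Which column belongs to which library is not stated, nor whether the pair of libraries shares a culture. The lists give positions and no signal, so depth is unknown and the labelled cell type could not be checked against marker genes.

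RFX proteins bind the X-box, a palindromic DNA element, and a dominant-negative form interferes with the native proteins. AP-1 is a dimer of a Fos and a Jun protein, or of Jun proteins, that joins through leucine zippers and binds the sequence TGANTCA. In neurons Fos, Fosb and Junb are immediate early genes, transcribed within minutes of calcium entry without new protein synthesis. Jund is made more steadily, and Fosl2 encodes the Fos-related antigen Fra-2.

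No annotation of mm9 was used, so whether a region lies in a promoter, exon or intron is not given, the windows could not be checked against the positions of the 6 genes in mm9, and a window can hold parts of other genes. In the RefSeq gene table of GRCm38.p6 the nearest protein-coding genes on either side were Tmed10 and Jdp2 for Fos, Rtn2 and Ercc1 for Fosb, Babam2 and Plb1 for Fosl2, Mysm1 and Fggy for Jun, Prdx2 and Hook2 for Junb, and Lsm4 and Iqcn for Jund. Jdp2, beside Fos, encodes a dimerization partner of Jun proteins.

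Promoter sequences show what the protein could meet beside the start of each gene. All 6 genes matched the RefSeq promoter table of GRCm38.p6, and the 250 bases before the start are printed for the 5 genes that had regions at 1 h without a 0 h counterpart. They lie at chr12:85473640-85473889 on the plus strand (Fos), chr5:32136222-32136471 on the plus strand (Fosl2), chr4:95052223-95052472 on the minus strand (Jun), chr8:84978749-84978998 on the minus strand (Junb) and chr8:70697489-70697738 on the plus strand (Jund), in GRCm38.p6. These coordinates cannot be set against the mm9 regions. Each is written 5′ to 3′ in the direction of transcription. Capitals mark a single X-box arm in Fosl2 and, in Jun, a stretch that resembles the full X-box.
Fos: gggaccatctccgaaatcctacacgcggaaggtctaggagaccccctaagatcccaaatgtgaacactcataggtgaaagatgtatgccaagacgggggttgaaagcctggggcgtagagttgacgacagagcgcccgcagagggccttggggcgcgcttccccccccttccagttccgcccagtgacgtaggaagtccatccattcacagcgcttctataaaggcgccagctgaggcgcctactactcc
Fosl2: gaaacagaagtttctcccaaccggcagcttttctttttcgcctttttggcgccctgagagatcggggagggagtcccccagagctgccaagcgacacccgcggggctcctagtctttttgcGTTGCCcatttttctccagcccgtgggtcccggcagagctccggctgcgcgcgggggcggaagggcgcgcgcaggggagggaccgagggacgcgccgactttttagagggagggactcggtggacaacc
Jun: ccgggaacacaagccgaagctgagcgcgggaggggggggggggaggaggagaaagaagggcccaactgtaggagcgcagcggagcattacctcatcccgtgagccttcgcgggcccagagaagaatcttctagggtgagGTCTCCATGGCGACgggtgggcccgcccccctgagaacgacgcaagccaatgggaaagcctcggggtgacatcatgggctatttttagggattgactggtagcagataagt
Junb: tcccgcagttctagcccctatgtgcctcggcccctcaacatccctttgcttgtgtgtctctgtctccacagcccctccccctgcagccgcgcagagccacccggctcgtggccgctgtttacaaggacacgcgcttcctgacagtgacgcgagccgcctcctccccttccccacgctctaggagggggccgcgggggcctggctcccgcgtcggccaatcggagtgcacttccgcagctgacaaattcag
Jund: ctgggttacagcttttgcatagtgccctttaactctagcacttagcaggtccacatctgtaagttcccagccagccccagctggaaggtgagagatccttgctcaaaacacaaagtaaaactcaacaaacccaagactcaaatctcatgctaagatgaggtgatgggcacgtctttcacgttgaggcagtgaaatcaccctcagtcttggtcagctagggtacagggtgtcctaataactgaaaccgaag

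A single X-box arm, GTTGCC or GTTACC on either strand, occurred in 1 of the 6 promoters, 129 to 124 bases before the Fosl2 start, and in 15.7% of the 32851 promoters of the table. The full X-box of 14 bases, built from GTTGCCA and its reverse complement and searched after the sequences had been seen, was matched with 3 mismatches 111 to 98 bases before the Jun start. A match with at most 3 mismatches was held by 2.74% of all promoters, and the other 5 members had 5 or 6 mismatches at best. None of the 6 held an exact match to the cyclic AMP response element TGACGTCA (1.55% of promoters) or the AP-1 site TGANTCA (6.75%) in these bases. The same held for the serum response element, searched as CC, 6 bases of A or T, and GG (1.47%). Unlike for the full X-box, no mismatch was allowed for these elements, and bases further from the start were not searched. Variant or more distant sites would therefore be missed. The Jund sequence was the poorest in G and C, at 47.6% with 3 CpG, against 58.4% to 68.8% and 15 to 23 CpG in the others and a median of 52.4% in all promoters.

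The 6 AP-1 loci as a group were denser in RFX-DN regions than the lists at both times, and their summed count was higher at 1 h of KCl while the list was shorter. Regions numbered 39 at 0 h and 47 at 1 h, a ratio of 1.21, whereas the whole list had a ratio of 0.705. Density was 12.4 regions per 100 kb at 0 h and 14.9 at 1 h, against 6.71 and 4.73 over the span of the whole lists. The flanks of the windows, given below, were also denser than the lists at both times. Of 45759 stretches of 50 kb with a region at either time, 15324 held at least 5 at 0 h, with a median of 6. The density at 0 h was thus not particular to these loci. The bases covered in the windows were 13.5 kb and 13.7 kb, a ratio of 1.02 against 0.709 for the whole lists. The excess of 8 regions at 1 h lay in regions with a centre in 1 column. Without the first 1 h column, but with the 0 h list left whole, it was a difference of -6, with 33 regions at 1 h. Cutting the 1 h list alone in itself favours fewer at 1 h. Among regions with centres in both columns the difference was -4 (31 at 0 h and 27 at 1 h), a ratio of 0.871 against 0.633 for the whole lists. Single loci differed, and Jun (ratio 0.75) and the bases covered at Fosb (0.710) and Junb (0.786) came close to the whole lists.

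The count was also made for each replicate column. The columns held 38 and 32 centres in the windows at 0 h and 41 and 33 at 1 h, so the 2 times overlapped. Per 10000 centres of the same column these were 2.44 and 2.60 at 0 h and 3.58 and 4.44 at 1 h, and both 1 h columns lay above both 0 h columns. The 1 h columns are shorter over the whole genome, which raises this share for any locus that keeps its regions.

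**Figure D1:**
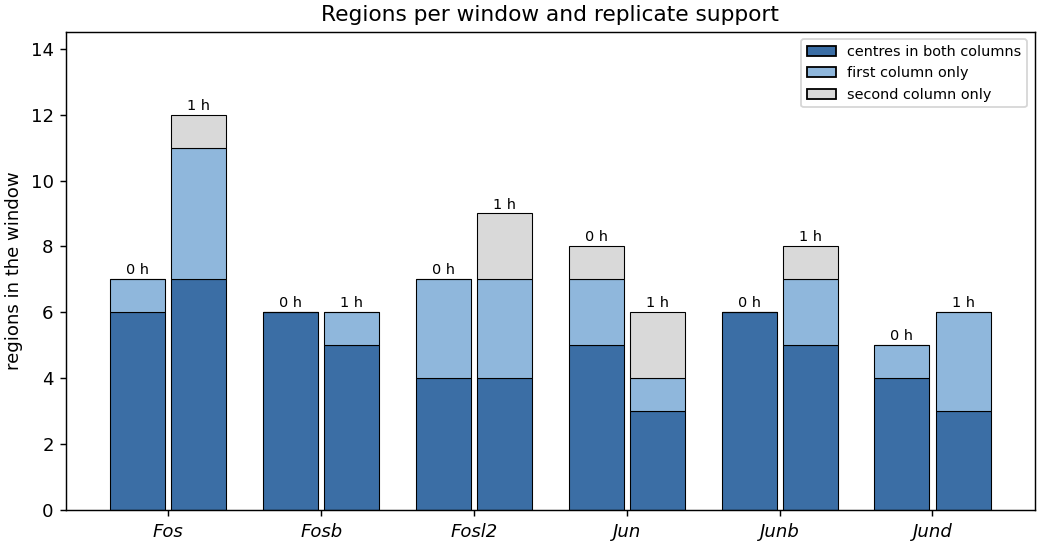
Number of regions in each window (y axis, counts) at 0 h and 1 h, with the bar divided by the replicate columns that hold a centre. Fos went from 7 to 12 regions, Fosl2 from 7 to 9, Junb from 6 to 8 and Jund from 5 to 6, Fosb had 6 at both times and Jun went from 8 to 6.

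More regions at 1 h than at 0 h were listed in 4 of the 6 windows (Fos, Fosl2, Junb and Jund). Among regions with both columns this held for Fos alone (6 at 0 h and 7 at 1 h), and likewise without the first 1 h column (7 and 8). The Fos family loci together held 20 regions at 0 h and 27 at 1 h, and the Jun family loci 19 and 20. With both columns the counts were 16 and 16 in the Fos family and 15 and 11 in the Jun family. For scale, the genome was divided into tiles of 50 kb, and among the 15324 tiles with at least 5 regions at 0 h, 2.62% had more at 1 h, with a median of 2 fewer. Requiring 5 regions at 0 h in itself favours fewer at 1 h, and among all 45759 tiles with a region at either time the share was 5.77%. An increase of 5 or more, the size seen in Fos, occurred in 2 tiles. The tiles cover the windows too, so 1 of the 2 can be the Fos locus itself. With the windows chosen as they were, these shares only place the loci within the lists.

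**Figure D2:**
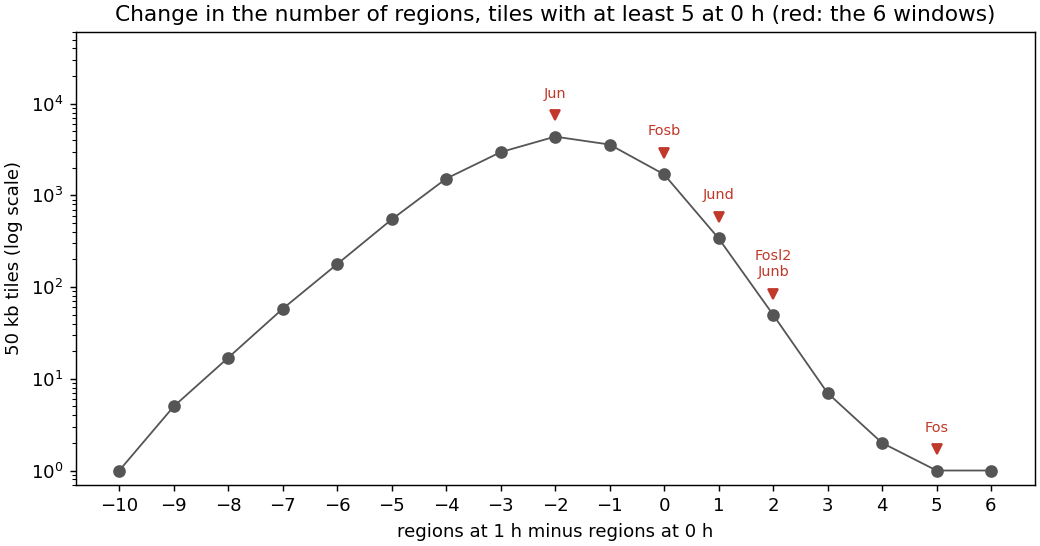
Number of 50 kb tiles (y axis, log scale) against the number of regions at 1 h minus that at 0 h (x axis), for tiles with at least 5 regions at 0 h, with the 6 windows marked in red. Jun sits at -2 with the bulk of the tiles, and Fos at 5, where 1 tile lies. The tiles cover the windows too, so that tile can be the Fos locus itself.

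In the change of count the surroundings of the same loci followed the list, while their density lay between that of the list and that of the windows. The 25 kb on either side of each window, 300 kb in all, was an interval chosen for description after the windows had been seen. In it 30 regions were listed at 0 h and 22 at 1 h, a ratio of 0.733. All 6 pairs of flanks had fewer regions at 1 h, from 8 and 5 beside Fos to 2 and 1 beside Jun. None of the 22 flank regions at 1 h lacked a 0 h counterpart, against 6.69% of the whole 1 h list, a share at which few would be met among 22. With the flanks added, the windows held 69 regions at both times.

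In the windows 15 of 47 regions at 1 h (31.9%) overlapped no 0 h region, against 6.69% of the whole 1 h list. Their median width was 80 bases (range 10 to 470), near the 70 bases of all such regions. Both columns supported 3 of the 15, the first alone 8 and the second alone 4. The 3 with both columns lay at Fos, Fosl2 and Jund, 1 at each. Among both-column regions they were 3 of 27, against 0.435% of both-column 1 h regions in the whole list, where 291 such regions exist. The choice of the loci used this contrast, so nothing is read from either share. Without the first 1 h column 7 of the 15 were left, and a minimum width of 100 bases in both lists left 6. The median distance of the 15 to the nearest 0 h region was 3470 bases, against 3790 bases for all such regions, and 0 of the 15 lay within 500 bases of one.

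**Figure D3:**
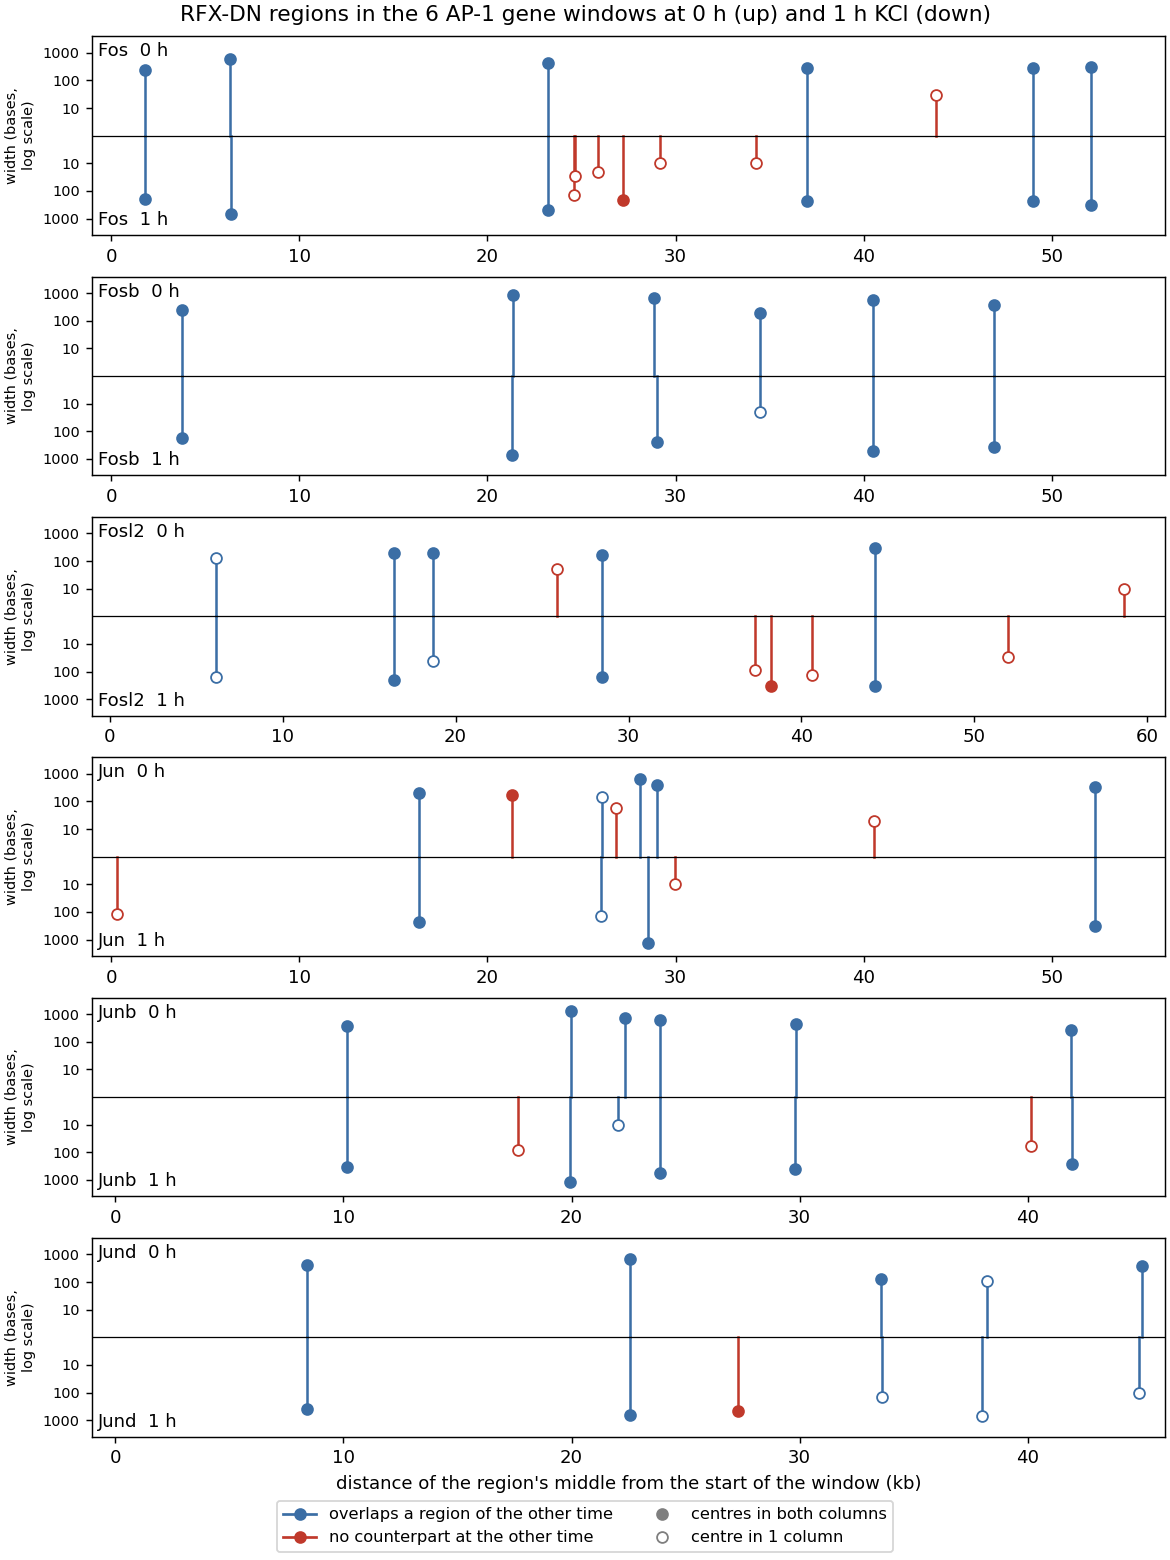
Position (x axis, kb from the start of the window) and width (y axis, bases, log scale) of every region in the 6 windows, 0 h upwards and 1 h downwards. Red marks regions without a counterpart at the other time, and filled circles mark centres in both columns. The 6 red stems of Fos at 1 h stand between the same 2 blue ones, while Fosb has none.

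Fos, the founding member of its family and the most used marker of neuronal activity, had the largest count of regions listed at 1 h alone. All 6 fell in 1 interval of 13.4 kb without any 0 h region, between 86813460 and 86826850 on chromosome 12 (mm9). The region with both columns ran from 86817100 to 86817320, was 220 bases wide, and its 2 centres lay 10 bases apart. Those with 1 column ran from 86814510 to 86814650 (140 bases, second column), from 86814670 to 86814700 (30 bases), from 86815890 to 86815910 (20 bases), from 86819160 to 86819170 (10 bases) and from 86824300 to 86824310 (10 bases), the last 4 in the first column. The leftmost pair lay 20 bases apart, with 1 region in each column, and may be a single site. The 6 covered 430 bases in all. Without the first 1 h column 2 of the 6 were left, and with both columns required 1.

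The interval at Fos is set among the others as a description, since the locus was chosen on such regions. Of the 173210 intervals between neighbouring 0 h regions, 0.0156% (27) held at least 3 such 1 h regions, and 1 held as many as 6, which is the interval at Fos. The interval was longer than the median of 8.0 kb, and longer ones have more room. Fosl2 held another of the 27. Without the first 1 h column the interval at Fos held 2, fewer than the 3 counted here.

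The regions around that interval differed little between times. Of the 7 regions of the Fos window at 0 h, 6 were matched at 1 h, all with centres in both columns at both times, and their centres had moved by 0 to 40 bases. The widest ran from 86796020 to 86796640 at 0 h (620 bases) and from 86796010 to 86796700 at 1 h (690 bases). The region at the left edge of the interval measured 440 bases at 0 h (86813020 to 86813460) and 510 at 1 h (86812960 to 86813470), the same gain of 70 bases, and the centres of both columns were at the same base at the 2 times. The largest loss was 50 bases, from 280 to 230, in the region that started at 86838860. The unmatched 0 h region was 30 bases wide with a first-column centre.

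Fosb, whose splice form deltaFosB is a long-lived product in stimulated neurons, had no region at 1 h alone. Such regions made up 6.69% of the whole 1 h list, so few would be met among 6 regions at any locus. Its window on chromosome 7 held 6 regions at 0 h, all with both columns, and 6 at 1 h, each matched to 1 of them. All 6 were narrower at 1 h, with a median loss of 90 bases, against 71.0% narrower and a median loss of 30 bases over all matched pairs of the lists. The widest, from 19885950 to 19886780, measured 830 bases at 0 h and 720 at 1 h. The region from 19893510 to 19894190 changed most, from 680 to 240 bases. The region that started at 19899410 went from 190 bases with both columns to 20 bases with the first alone. The bases covered went from 2.86 to 2.03 kb, a ratio of 0.710, almost that of the whole lists.

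Fosl2 had 9 regions at 1 h, and 4 of them met none at 0 h. A group of 3 lay in an interval of 15.6 kb without 0 h regions, between 32448520 and 32464130 on chromosome 5. The middle one, from 32458100 to 32458420, was 320 bases wide with centres in both columns 40 bases apart. Its neighbours ran from 32457300 to 32457390 (second column) and from 32460530 to 32460660 (first column), and the fourth from 32471950 to 32471980 (first column). The widest region, from 32464130 to 32464430 at 0 h, was 300 bases wide and became 330 bases, a gain shared by the region that started at 32426050 (130 to 160 bases). The largest loss was in the region that started at 32438580, from 200 bases with both columns to 40 bases with the second alone. The 2 unmatched 0 h regions were 50 and 10 bases wide with a first-column centre.

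Jun, a partner of Fos proteins, had 6 regions at 1 h against 8 at 0 h. Among regions with both columns Fosb, Junb and Jund also had fewer at 1 h. With the first 1 h column left out and the 0 h list left whole, Fosb, Fosl2 and Jund did. Centres were also counted per column, though the columns of the 2 times cannot be paired. At Fosb (6 and 6, then 6 and 5) and Fosl2 (7 and 4, then 7 and 6) the times overlapped. The same held at Junb (6 and 6, then 7 and 6) and Jund (5 and 4, then 6 and 3). At Fos both 1 h columns lay above both 0 h columns (7 and 6, then 11 and 8). At Jun both lay below (7 and 6, then 4 and 5). At 0 h regions of 650 bases (94717770 to 94718420) and 390 bases (94718830 to 94719220) stood 410 bases apart on chromosome 4. At 1 h a single region of 1360 bases (94717840 to 94719200) spanned both, and its 2 centres, both at 94719020, lay within 10 bases of those of the right-hand 0 h region. The 2 regions were thereby counted as 1, and the bases covered went from 1.96 to 2.20 kb. Jun also had the one both-column 0 h region of the 6 loci without a 1 h counterpart, from 94711220 to 94711390, 170 bases wide. Its 2 regions at 1 h alone ran from 94690240 to 94690360 (first column) and from 94719960 to 94719970 (second column, 10 bases). Of the 3 matched regions, the one that started at 94706240 widened most, from 210 to 240 bases, and none was narrower.

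Junb, an immediate early gene whose product often restrains Jun, held the widest matched region of the 6 loci. On chromosome 8 it ran from 87499320 to 87500600 at 0 h (1280 bases) and from 87499340 to 87500540 at 1 h (1200 bases). Its extent was nearly kept while its centres lay 460 and 490 bases away from those at 0 h in the first and second columns. The neighbouring region, from 87501990 to 87502730, went from 740 bases with both columns to 10 bases with the first alone, the largest loss of width among the matched regions. All 6 of the 0 h regions at Junb had both columns and a 1 h counterpart, and none was wider at 1 h. The 2 regions at 1 h alone were 80 bases (87497610 to 87497690, first column) and 60 bases wide (87520130 to 87520190, second column).

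Jund held the widest of the 15 regions listed at 1 h alone. It ran from 73227050 to 73227520 on chromosome 8, was 470 bases wide, and had centres in both columns 60 bases apart. In the whole 1 h list 6 of the 8170 regions without a counterpart were at least that wide, this region among them. The locus was chosen with its change between times known, so nothing is read from that count. The region of 470 bases lay in an interval of 10.6 kb without 0 h regions, between 73222890 and 73233510. The region at the left edge of this interval measured 660 bases at 0 h (73222230 to 73222890), the most of that list in the window, and 650 at 1 h. The widest at 1 h, from 73237620 to 73238350 (730 bases), matched a region of 110 bases at 0 h, and both had a first-column centre alone, 520 bases apart. The region from 73244800 to 73245190 went from 390 bases with both columns to 100 bases with the first.

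In the other direction 6 of 39 regions at 0 h (15.4%) had no 1 h counterpart, against 34.6% of the whole 0 h list. Among those with both columns it was 1 of 31, against 15.1%. Members were better supported and wider than the list at 0 h, when 31 of 39 (79.5%) had both columns, against 61.0%, and the median width was 280 bases against 200. At 1 h 27 of 47 (57.4%) had both columns, against 54.8%, and the median width was 220 bases against 210. Regions of at least 600 bases made up 17.9% of the members at 0 h and 12.8% at 1 h, against 3.18% and 2.56% of the lists. In the whole 0 h list, regions with a counterpart had a median width of 260 bases and those without 100 bases. The part of width and support in the low share of unmatched 0 h members was not tested.

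Regions matched one to one are set beside all such pairs of the lists. The width differed by at most 50 bases in 19 of the 31 pairs (61.3%), against 62.5% of all pairs. Of the 31 pairs 19 were narrower at 1 h, 2 equal and 10 wider, and 71.0% of all 112001 such pairs in the lists were narrower. The median change was a loss of 30 bases, the same as over all pairs. A width at 1 h of at most 50% of that at 0 h was seen in 5 pairs, at Fosb (2), Fosl2, Junb and Jund, against 14.7% of all pairs. In 4 of these 5 the support went from both columns to 1. Among pairs with both columns at 0 h, this loss of support was seen in 5 of 28 in the windows (17.9%), against 28.0% in the lists. The median shift of a centre was 10 bases over 53 centres, and 44 of them (83.0%) moved by 20 bases or less. Over all pairs the median was also 10 bases and the share 81.2%. A combined width has no replicate error, so none of these changes can be set against a spread.

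**Figure D4:**
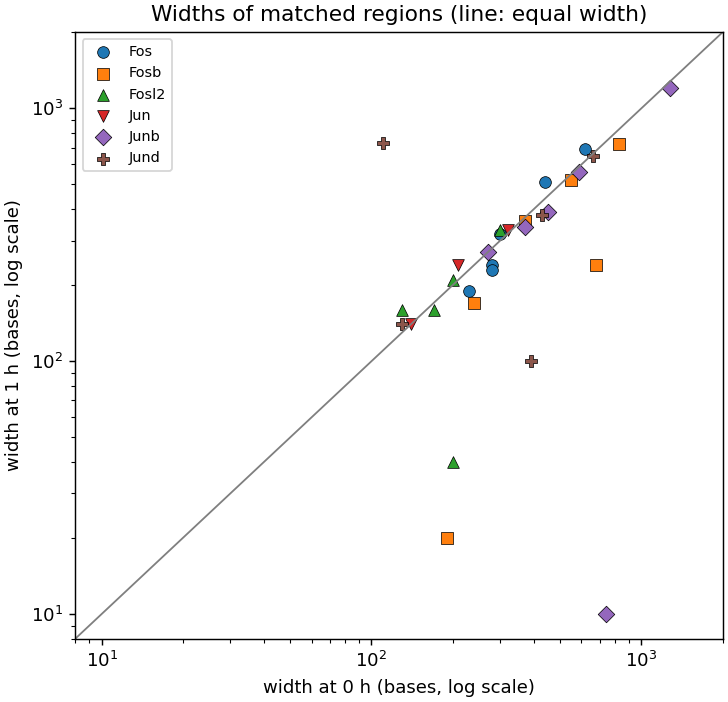
Width at 1 h (y axis, bases, log scale) against width at 0 h (x axis, bases, log scale) of the 31 matched regions, 1 point per pair, with symbols by gene and a line of equal width. Of the 31 points 19 lie within 50 bases of the line, 5 lie far below it, the lowest of them at Junb with 740 and 10 bases, and 1 at Jund lies far above it with 110 and 730 bases.

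The WT list held no region in any of the 6 windows, nor with 25 kb added on both sides. With 43 regions in the whole list, few would be met in 315 kb at any locus.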

How the data were processed

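Used here were 3 deposited lists of regions, each combining 2 of the 8 ChIP-seq libraries. The 2 input libraries and the 52 reporter, plasmid and key samples were not analysed here. Per the file headers, the authors' columns are chromosome, start, end and c1 and c2, all base positions. From the values, c1 and c2 lie inside the region or mark that a replicate has no centre. Per the submitters' processing notes, Bowtie and mm9 were used. Not given in the sources used here are the caller of the regions with its threshold, the way replicates were joined, and whether positions count from 0 or 1. Width was end minus start.

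Regions of different lists were counterparts when they overlapped by at least 1 base. Matched pairs are regions that meet exactly 1 region of the other list. Members, windows and motifs were chosen with earlier results of these data known. All 6 genes are named, and in each window the widest region of each list, all 1 h regions and all both-column 0 h regions without a counterpart, and the matched pairs with the largest change either way. Comparisons with tiles, flanks and intervals and the full X-box search were chosen after seeing the data. The interval code was tested on simulated lists. Python 3.11.15, pandas 2.3.3 and numpy 2.4.6 were used.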

Additional observations from a re-analysis of the deposited data

How the results depend on the processing

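No paired analysis was possible because columns c1 and c2 carry no replicate number that ties them to a library. Alternatives for the difference between times and for single genes were chosen after seeing the data. The excess of 8 regions at 1 h depended on the processing. It reversed to -4 with centres in both columns required, and to -6 without the first 1 h column, set against the whole 0 h list. The excess was 1 with a minimum width of 100 bases and vanished (0) with windows extended by 25 kb. Leaving out 1 column gave -6 to 15. Each time the column was cut from 1 list and the other list stayed whole, which favours fewer regions on the side cut. By centres, the 2 columns held 38 and 32 at 0 h and 41 and 33 at 1 h, so the 2 times overlapped. Windows with more regions at 1 h were 1 with both columns required and 1 to 4 without 1 column. Regions at 1 h without a 0 h counterpart were 3 with both columns required (11.1% of members against 3.45% of the list), 6 at 100 bases (17.1% against 5.65%) and 7 to 18 without 1 column, lowest without the first 1 h column (21.2% against 2.09%). Regions at 0 h without a counterpart were 14 with overlap of at least 50% of both regions, 14 with extended windows and 2 to 12 without 1 column. Both columns required left 27 regions at 1 h. Extended windows gave 69 regions at 0 h, 54 and 43 with both columns at 0 and 1 h, and 30 narrower pairs of 53, as follows from their length. Of the matched pairs 11 were narrower by at least 50 bases. The other 60 recomputed totals stayed within 1.5 times. Of 156 recomputed counts of single genes 40 moved by more. Without depths, regions below the authors' threshold at 1 time cannot be told apart from absent ones.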
